A study of Mus musculus with 8 samples.

Results

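The 44 genes described here encode the ligands, receptors, Smad proteins and antagonists of the mouse TGFb and BMP pathways. They were chosen by gene symbol from the annotation of the array, taking the transcript cluster (the array's unit for 1 gene) with the highest mean for each symbol. They are 44 of the 19505 symbols on 22206 transcript clusters, and each lay on exactly 1 cluster. The set holds 7 TGFb and activin ligands, 9 BMP and GDF ligands, 10 receptors, 2 co-receptors, 8 Smads and 8 antagonists.

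RNA came from cultured mouse tail-tip fibroblasts (TTFs) taken after birth, in which retroviruses delivered Gata4, Hand2, Mef2c and Tbx5 (GHMT), the cardiac transcription factors used to reprogram fibroblasts towards heart muscle. All 8 samples carried GHMT, so the control is the transduced culture with vehicle (DMSO), called GHMT below, and not an untreated fibroblast. TTF set 1 gave 1 array each of GHMT, diclofenac (which blocks cyclooxygenase and so prostaglandin synthesis), an antagonist of the prostaglandin E2 (PGE2) receptor EP4, and diclofenac together with PGE2. TTF set 2 gave 1 array each of GHMT, the EP4 antagonist, a TGFb inhibitor and a Wnt inhibitor. GHMT and the EP4 antagonist thus had 2 arrays each and the other 4 groups 1 each, and compounds went on together with the viruses. Which inhibitors were used, at which dose, for how long, the mouse strain, and whether a set came from 1 animal or a pool are not stated in the labels. No step that separates transduced from untransduced cells is described in them, so each value is an average over the whole culture.

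TGFb and activin ligands bring type II and type I receptors together, which leads to phosphorylation of Smad2 and Smad3, while BMP ligands use other receptors of the same family and Smad1, Smad5 and Smad9. Both branches share Smad4, and Smad6 and Smad7 restrain them. Secreted antagonists such as gremlin, noggin, chordin and the follistatins bind ligands outside the cell, and in fibroblasts the TGFb branch is best known for driving matrix production and the myofibroblast state.

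Values are log2 expression values, so that a difference of 1 is 2-fold. A gene was called above background in an array where its value exceeded the 95th percentile of that array's 23 background probe sets, a level of 5.73 to 5.99. By this rule 28 of the 44 genes lay above background in all 8 arrays and 7 in some of them. The other 9 lay at background in every array: the ligands Bmp7, Gdf5, Gdf6 and Mstn (myostatin), the receptors Acvr2b, Acvrl1 and Bmpr1b, the BMP-branch Smad9 and the antagonist Nog (noggin). The 7 genes in between were Bmp2 (1 array), Bmp5 and Chrd (2 each), Chrdl1 (5), Smad6 (6), Acvr1b and Smad7 (7 each). No fold is given where both arrays compared lay at background, and a lower bound ("at least") where 1 did.

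The fibroblast label was checked first: 10 of 10 measured fibroblast markers lay above background in every array, with means of 13.47 to 14.19. Endothelial markers (0 to 1 of 9), keratinocyte markers (0 of 7) and macrophage and leukocyte markers (0 to 1 of 8) were nearly all at background, and so were most cartilage and bone markers (1 to 2 of 7 above it). Smooth muscle markers (6 to 7 of 7; means 10.50 to 11.71) and cardiomyocyte markers (5 to 6 of 10; means 8.15 to 10.15) were present in all cultures. The sets differed in the median value over all clusters, at 5.28 to 5.29 in set 1 and 5.10 to 5.14 in set 2. Differences of 1 array from 1 are therefore taken within a set. The tests on several arrays were run without and with the set as a block. The differences of the 35 genes above background in at least 1 array are shown as a map of colours.

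**Figure D1:**
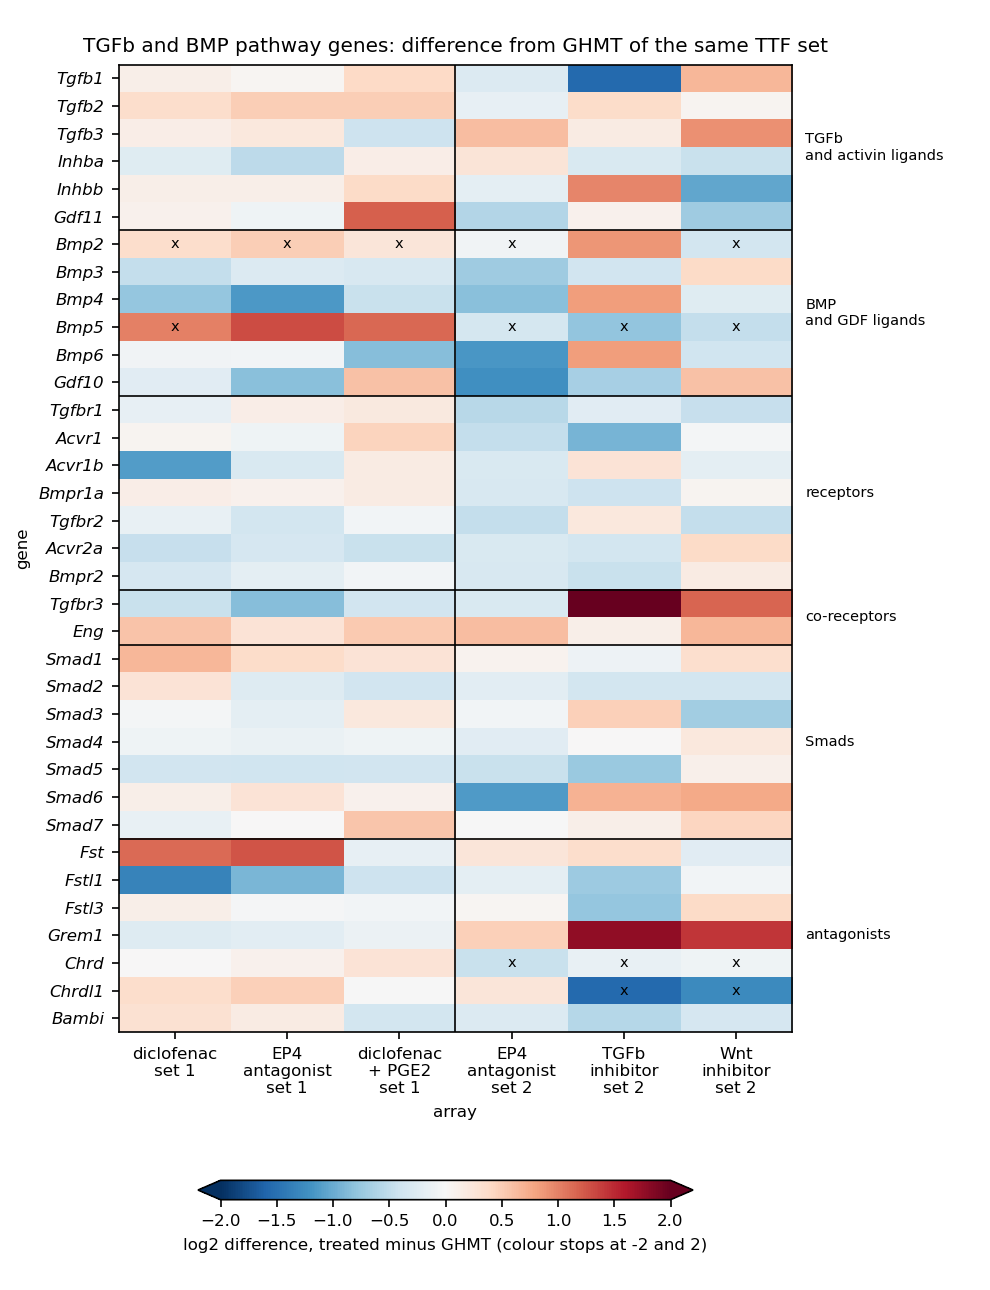
Log2 difference of each treated array from the GHMT array of the same TTF set, for the 35 genes above background in at least 1 of the 8 arrays; columns are arrays, rows are genes ordered by role, x marks pairs with both arrays at background, and colours stop at -2 and 2. Among pairs not marked x, the deepest colours are those of Tgfbr3 (2.69), Grem1 (1.77) and Tgfb1 (-1.56) with the TGFb inhibitor. Chrdl1 with the TGFb inhibitor (-1.56) is marked x.

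With the TGFb inhibitor, the ligand gene Tgfb1 was lower and the co-receptor Tgfbr3 and the BMP antagonist Grem1 were higher than in GHMT of the same set. These were the only members above background that differed by 2-fold or more in this comparison. With Chrdl1 and Smad9, which lay at background in both arrays, 5 of 44 genes (11.4%) were past 2-fold, against 5.36% of all transcript clusters (2.84% higher, 2.52% lower). The comparison rests on 1 array against 1, has no replicate check and was given no test. The median size of the difference was 0.45 over the 44 genes and 0.25 over all clusters. At 1.5-fold or more 19 genes differed, but the share of all clusters at that threshold was not counted.

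Tgfb1 (cluster TC0700000424.mm.2) encodes a TGFb ligand. In set 2 it was at 12.97 with GHMT, 12.69 with the EP4 antagonist, 11.41 with the TGFb inhibitor and 13.64 with the Wnt inhibitor. In set 1 it was at 11.93 with GHMT, 12.05 with diclofenac, 11.97 with the EP4 antagonist and 12.33 with diclofenac plus PGE2. The array with the TGFb inhibitor was the lowest of all 8 and that with the Wnt inhibitor the highest. Against GHMT the difference with the TGFb inhibitor was -1.56 (2.95-fold lower), rank 126 from the lowest of 10099 clusters above background in either array. In the same array Tgfb2 and Tgfb3, which encode the other TGFb isoforms, were at 13.22 and 14.16, against 12.86 and 14.00 in GHMT.

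Tgfbr3 (cluster TC0500002919.mm.2) encodes betaglycan, a membrane co-receptor that presents TGFb to its receptors and also binds inhibin. Its values in set 2 were 12.19 with GHMT, 11.88 with the EP4 antagonist, 14.88 with the TGFb inhibitor and 13.35 with the Wnt inhibitor. In set 1 it stood at 11.82 with GHMT, 11.37 with diclofenac, 10.97 with the EP4 antagonist and 11.43 with diclofenac plus PGE2. The arrays with the TGFb and Wnt inhibitors stood above all 6 others. The difference with the TGFb inhibitor, 2.69 (6.45-fold), was the largest among the 44 genes and rank 63 from the highest of 10099.

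Grem1 (cluster TC0200004363.mm.2) encodes gremlin, which binds and blocks BMP ligands. It was at 14.24 with GHMT, 14.72 with the EP4 antagonist, 16.01 with the TGFb inhibitor and 15.67 with the Wnt inhibitor in set 2. All 4 arrays of set 1 were lower: 11.51 with GHMT, 11.25 with diclofenac, 11.30 with the EP4 antagonist and 11.39 with diclofenac plus PGE2. Its difference with the TGFb inhibitor was 1.77 (3.41-fold), rank 168 from the highest.

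Because Tgfb1 and Grem1 differed in opposite directions with the TGFb inhibitor, the 250 bases before the annotated start of each, chosen after these values were seen, are shown from RefSeq on GRCm38.p6. That table held 29 of the 44 genes. Capitals mark a Smad-binding letter string (CAGAC, or GTCTG on the other strand) or a GC box (GGGCGG, or CCGCCC), and each line runs 5′ to 3′ on the gene's own strand. The first lies upstream of Tgfb1 at chr7:25686752-25687001 on the plus strand, the second upstream of Grem1 at chr2:113758649-113758898 on the minus strand.
Tgfb1: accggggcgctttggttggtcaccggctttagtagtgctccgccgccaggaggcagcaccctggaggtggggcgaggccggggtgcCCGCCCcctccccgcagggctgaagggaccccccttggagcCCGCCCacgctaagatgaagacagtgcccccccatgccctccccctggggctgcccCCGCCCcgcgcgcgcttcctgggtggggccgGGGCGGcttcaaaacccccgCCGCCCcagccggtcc
Grem1: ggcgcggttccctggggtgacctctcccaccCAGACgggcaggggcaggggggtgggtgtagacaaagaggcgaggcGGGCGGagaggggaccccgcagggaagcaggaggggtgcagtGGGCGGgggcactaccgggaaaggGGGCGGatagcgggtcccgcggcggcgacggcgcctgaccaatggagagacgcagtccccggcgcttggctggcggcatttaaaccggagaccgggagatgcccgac

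Both windows are rich in G and C, at 75.2% for Tgfb1 and 72.0% for Grem1. The Tgfb1 window held 5 GC boxes, with first bases at -164, -123, -67, -36 and -16 from the start site, and no CAGAC. The Grem1 window held 3 GC boxes, at -173, -131 and -107, and 1 CAGAC at -219. Neither held the AP-1 string TGANTCA, searched on both strands. Of all 32851 windows of that length, 32.7% held at least 1 GC box, 42.2% a CAGAC and 6.7% a TGANTCA. A single GC box or CAGAC is thus a common letter string. How many windows held as many GC boxes as these was not counted. None of the motifs overlapped in these windows.

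Among the other ligands, Inhbb, an activin subunit gene, was at 11.50 with the TGFb inhibitor against 10.53 with GHMT (difference 0.97). The BMP ligands Bmp4 (10.05 against 9.21) and Bmp6 (8.93 against 8.09) were both higher by 0.84. Bmp2 lay at background with GHMT (5.83) and at 6.72 with the TGFb inhibitor, at least 1.77-fold higher and its only value above background in the 8 arrays. That value was still below the highest background probe set of its array (7.13). Among the receptors Acvr1, a BMP type I receptor, was lower by 0.93, and Tgfbr1 and Tgfbr2, the TGFb receptors themselves, were at 11.12 and 13.55 against 11.35 and 13.34. Of the Smads, Smad5 (-0.74) was lower and Smad6 (0.70), an inhibitor of BMP signalling, was higher. The antagonists Fstl3 (-0.78) and Fstl1 (-0.72) were lower.

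Genes known to respond to TGFb and BMP were read from lists in the same arrays. The lists were chosen with earlier results of these data known, so the counts are descriptive. Of 20 measured TGFb response genes, all above background in at least 1 array, 13 were 2-fold or more lower with the TGFb inhibitor and 0 higher, with a median of -1.60 against -0.01 over all clusters. The largest differences were those of Pmepa1 (14.07 with GHMT, 10.19 with the inhibitor), a feedback inhibitor of TGFb signalling, the matrix genes Tgfbi (12.83, 9.60) and Postn (11.28, 8.64), and Fn1, fibronectin (17.93, 15.43). Smad7, the member on this list and a classical feedback target, differed by 0.11 only, near background at 6.13 against 6.02. Of 16 BMP response genes, 10 of them above background in at least 1 array, 7 were higher by 2-fold or more and 0 lower, with a median of 0.88. These were Atoh8 (5.96 with GHMT, 8.45 with the inhibitor), Id4 (6.65, 9.07), Id2 (8.35, 10.43), Id1 (9.27, 11.33), Id3 (6.61, 8.48), Grem1 itself and Smad9, the last at background. Grem1 and Smad9 were already counted above as members. The Id genes encode inhibitors of helix-loop-helix transcription factors and are direct BMP targets.

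Other genes of the route showed a more mixed picture. Of 17 genes of latency and activation of TGFb, 2 were higher by 2-fold or more and 5 lower, with Fmod, a TGFb-binding proteoglycan, at 7.48 against 9.25 and Ltbp2, a latent TGFb binding protein, at 8.70 against 10.28. Fbn2 was at background with the inhibitor (5.14 against 7.90), and Itgb5, an integrin subunit, was at 11.97 against 13.36. Of 19 Smad partners and regulators, 0 were higher and 2 lower, Pmepa1 and the Smad corepressor Skil (8.83 against 11.17). Of 19 further antagonists and co-receptors, 1 was higher, Nbl1 (10.06 against 9.04), and of 16 further ligands, 2 of them above background, 0 passed 2-fold. Over all clusters 2.84% were 2-fold or more higher with the TGFb inhibitor and 2.52% lower.

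Markers of other cell types also differed between these arrays. The mean of 10 cardiomyocyte markers was 9.60 with the TGFb inhibitor and 8.15 with GHMT, and that of 7 smooth muscle markers 10.70 and 11.31, while that of 10 fibroblast markers was 14.01 and 14.08. These near-equal means cover 3 fibroblast markers that were 2-fold or more higher with the inhibitor (S100a4, Thy1 and Dcn) and 3 that were lower, the collagen genes Col1a1 (15.28 against 16.76), Col1a2 (12.14 against 14.95) and Col3a1 (13.94 against 15.14). Of 7 cartilage and bone markers 1 was lower by 2-fold, Sox9 (8.16 against 9.62). Their part in the differences above was not tested. In such bulk samples, fewer cells of a type and less RNA per cell cannot be told apart.

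**Figure D2:**
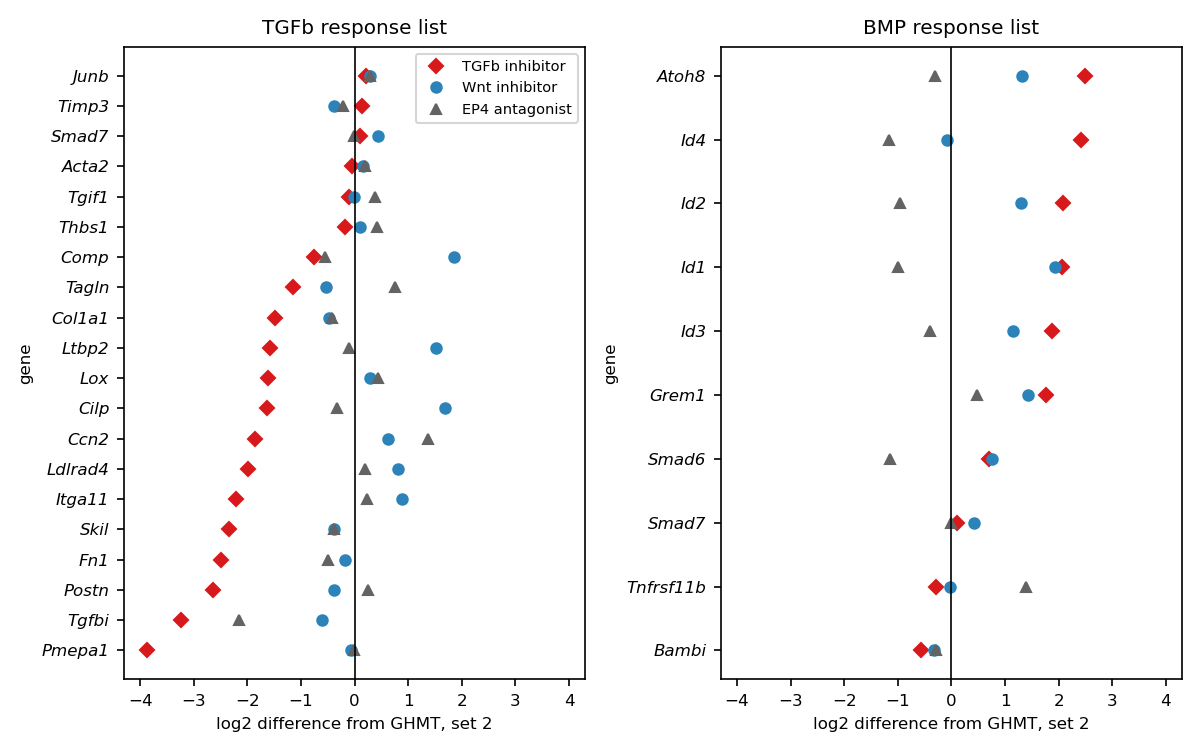
Log2 difference from the GHMT array of TTF set 2 (x axis) for genes of the TGFb response list (left, 20 genes) and the BMP response list (right, the 10 above background in at least 1 array), with diamonds for the TGFb inhibitor, circles for the Wnt inhibitor and triangles for the EP4 antagonist, 1 array each. With the TGFb inhibitor the left panel runs down to -3.88 (Pmepa1) and the right panel up to 2.49 (Atoh8).

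With the Wnt inhibitor, measured against the same GHMT array and therefore not independent of the comparison above, Grem1 and Tgfbr3 were also higher and Inhbb was lower. In all 5 of 44 genes (11.4%) were past 2-fold, against 4.1% of all clusters (2.53% higher, 1.57% lower), and 2 of them, Chrdl1 and Smad9, lay at background in both arrays. Grem1 was higher by 1.43 (2.69-fold, rank 231 from the highest of 10081) and Tgfbr3 by 1.16 (2.23-fold, rank 338). This too is 1 array against 1, with no test.

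Inhbb, which encodes the subunit of activin B, was at 10.53 with GHMT, 10.34 with the EP4 antagonist, 11.50 with the TGFb inhibitor and 9.49 with the Wnt inhibitor in set 2. In set 1 its values were 7.32 with GHMT, 7.43 with diclofenac, 7.43 with the EP4 antagonist and 7.71 with diclofenac plus PGE2. The difference with the Wnt inhibitor was -1.04 (2.06-fold lower), so the array lay below GHMT here and above it with the TGFb inhibitor. Tgfb1 lay on the other side of GHMT as well, higher by 0.67 with the Wnt inhibitor. Further differences from GHMT with the Wnt inhibitor were 0.92 for Tgfb3, 0.76 for Smad6 and 0.66 for Eng (endoglin, a co-receptor). Smad3 differed by -0.70 and Gdf11 by -0.71. In all 13 genes reached 1.5-fold, without a count over all clusters at that threshold.

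Of the 20 TGFb response genes, 3 were 2-fold or more higher with the Wnt inhibitor and 0 lower (median 0.14): Comp (7.69 against 5.83), Cilp (9.38 against 7.69) and Ltbp2 (11.79 against 10.28), with Comp at background in GHMT. Of the 16 BMP response genes, 6 were higher and 0 lower (median 0.54), among them Id1 (11.21 against 9.27), Atoh8 (7.28 against 5.96), Id2 (9.65 against 8.35) and Grem1. Smad9, also among them, lay at background in both arrays (5.10 against 3.99). Id4, at 9.07 with the TGFb inhibitor, was at 6.56 with the Wnt inhibitor and 6.65 with GHMT. Of the 17 latency genes, 2 were higher, Fmod (12.02 against 9.25) and Ltbp2, and 1 was lower, Fbn2, at background with the inhibitor (5.75). Nbl1 (10.48 against 9.04) was the 1 of 19 further antagonists past 2-fold, and Inha, the inhibin alpha subunit gene (7.25 against 6.11), the 1 of 16 further ligands. None of the 19 Smad partners was past 2-fold. Over all clusters 2.53% were 2-fold or more higher with the Wnt inhibitor and 1.57% lower. The mean of the cardiomyocyte markers was 9.70 with the Wnt inhibitor, and that of the smooth muscle markers 10.81. Of 7 cartilage and bone markers 2 were 2-fold or more higher, Sox9 (10.80 against 9.62) and Comp, which is also on the TGFb response list, with a mean of 5.56 against 4.98. Of 10 fibroblast markers 2 were higher, Pdgfrb (13.11 against 11.60) and Thy1 (12.28 against 11.10), and 0 lower. The part of these markers was not tested.

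Inhibition of PGE2 and EP4 signalling was measured in more arrays, and no member passed the test. The largest differences were those of the BMP-family ligands Gdf10 and Bmp4, which were lower, and of the activin antagonist Fst, which was higher. Several comparisons bear on this: the EP4 antagonist against GHMT in both sets (2 against 2 arrays), diclofenac with and without PGE2 in set 1, and all inhibited arrays (diclofenac and both EP4 antagonist arrays) against all active ones (both GHMT arrays and diclofenac plus PGE2; 3 against 3). They share arrays, GHMT of set 1 in particular, and are given side by side. The inhibited and active arms pool different treatments, so the 3 arrays of an arm are not replicates of 1 group. The SEs of the comparison of these arms therefore include differences between treatments. Without the TTF set as a block, the SEs of both tested comparisons also carry the difference between the sets. For Bmp4 with the EP4 antagonist the SE was 0.85 without the block and 0.21 with it. The fits without the block can therefore miss differences that recur within each set. The labels do not say that arrays of a group come from separate experiments, so p-values measure only the spread between these samples. Tests are two-sided limma tests with Benjamini-Hochberg adjustment over all 22206 clusters.

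For the EP4 antagonist against GHMT limma called 0 of 44 genes and 0% of all clusters, with 144 clusters and 0 members at an unadjusted p under 0.05. With the TTF set as a block it also called 0, with 1243 clusters and 5 members unadjusted and a smallest adjusted p among the members of 0.707. The median difference was -0.15 over the 44 genes and -0.01 over all clusters. Of the 30 members above background in all 4 arrays, 16 (53.3%) were lower in both sets, 4 (13.3%) higher in both and 10 (33.3%) of opposite sign. Over all 9104 clusters above background in these arrays the shares were 27.2% lower, 25.1% higher and 45.1% opposite.

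For the inhibited against the active arrays limma called 0 of 44 genes and 0% of clusters without a block, with 469 clusters and 3 members (Fst, Gdf10 and Acvr1b) at an unadjusted p under 0.05. With the TTF set as a block, 84 clusters passed (0.378%) and still 0 members, with 10 members unadjusted and a smallest adjusted p of 0.144. The ranges of the arms did not overlap for 4 of 44 genes (9.1%), Gdf10, Acvr1b, Bmpr2 and Fst, against 5.84% of all clusters. Markers of heart muscle moved with this comparison. In the fit with the block 3 of 10, Myh6, Actc1 and Myl7, rose, against 0.257% of all clusters, and 0 passed without it. The mean of the list was 9.36 to 10.15 in the inhibited arrays and 8.15 to 8.97 in the active ones. None of 10 fibroblast markers passed with or without the block, but their mean was 13.47 to 13.74 in the inhibited arrays and 13.89 to 14.08 in the active ones, without overlap (median difference -0.50). Their part in the values that follow was not tested.

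Gdf10, a secreted ligand related to Bmp3, was at 7.82 with GHMT and 8.41 with diclofenac plus PGE2 in set 1, and at 7.59 with diclofenac and 6.98 with the EP4 antagonist. In set 2 it was at 8.80 with GHMT, 7.58 with the EP4 antagonist, 8.13 with the TGFb inhibitor and 9.39 with the Wnt inhibitor. Every inhibited array was lower than every active one. The difference between these arms was -0.96 ± 0.22 (SE with the set as a block, n = 3 and 3; limma adjusted p = 0.144, and 1 without the block). With the EP4 antagonist alone it was -0.84 in set 1 and -1.22 (2.33-fold lower) in set 2 (mean -1.03 ± 0.21, SE with the block, n = 2 and 2; limma adjusted p = 0.707). Gdf10 passed only in a fit with the block that left out GHMT of set 1 (-1.17, limma adjusted p = 0.0429).

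Bmp4, a ligand of the BMP branch, was at 11.53 with GHMT, 10.75 with diclofenac, 10.38 with the EP4 antagonist and 11.09 with diclofenac plus PGE2 in set 1. In set 2 it was at 9.21 with GHMT, 8.38 with the EP4 antagonist, 10.05 with the TGFb inhibitor and 8.96 with the Wnt inhibitor. Within each set the inhibited arrays were below the active ones, though the arms overlap across sets. The difference with the EP4 antagonist was -1.15 (2.22-fold lower) in set 1 and -0.83 in set 2, and that between the arms -0.77 ± 0.18 with the block (n = 3 and 3; limma adjusted p = 0.146). Without the block the SE of the latter was 0.72. Bmp6, another BMP ligand, was at 7.57, 7.50, 7.52 and 6.72 in set 1 (in the order GHMT, diclofenac, then EP4 antagonist, then diclofenac plus PGE2). Set 2 gave 8.09, 6.93, 8.93 and 7.69 (GHMT, EP4 antagonist, TGFb inhibitor, Wnt inhibitor). Its difference with the EP4 antagonist was thus -0.05 in set 1 and -1.16 (2.23-fold lower) in set 2.

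Fst encodes follistatin, which binds activins. It was at 9.87 with diclofenac and 10.00 with the EP4 antagonist in set 1, against 8.74 with GHMT and 8.58 with diclofenac plus PGE2. In set 2 it was at 9.43 with GHMT, 9.67 with the EP4 antagonist, 9.78 with the TGFb inhibitor and 9.20 with the Wnt inhibitor. In set 1 both inhibited arrays were above both active ones: the difference from GHMT was 1.13 (2.19-fold) with diclofenac and 1.26 (2.39-fold) with the EP4 antagonist, and adding PGE2 to diclofenac gave -1.29 (2.45-fold lower). In set 2 the EP4 antagonist differed by 0.24. Between the arms the difference was 0.93 ± 0.22 with the block (n = 3 and 3; limma adjusted p = 0.146), and the SE without the block was 0.27.

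Fstl1, a secreted follistatin-like protein, went the other way in set 1, at 13.17 with GHMT, 11.84 with diclofenac, 12.25 with the EP4 antagonist and 12.75 with diclofenac plus PGE2. In set 2 its values were 13.63 with GHMT, 13.44 with the EP4 antagonist, 12.91 with the TGFb inhibitor and 13.58 with the Wnt inhibitor. The diclofenac array was the lowest of all 8, 1.33 below GHMT (2.51-fold), and lay 0.91 below diclofenac plus PGE2. Between the arms the difference was -0.67 ± 0.21 with the block (n = 3 and 3; limma adjusted p = 0.323), and the SE without the block was 0.42.

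**Figure D3:**
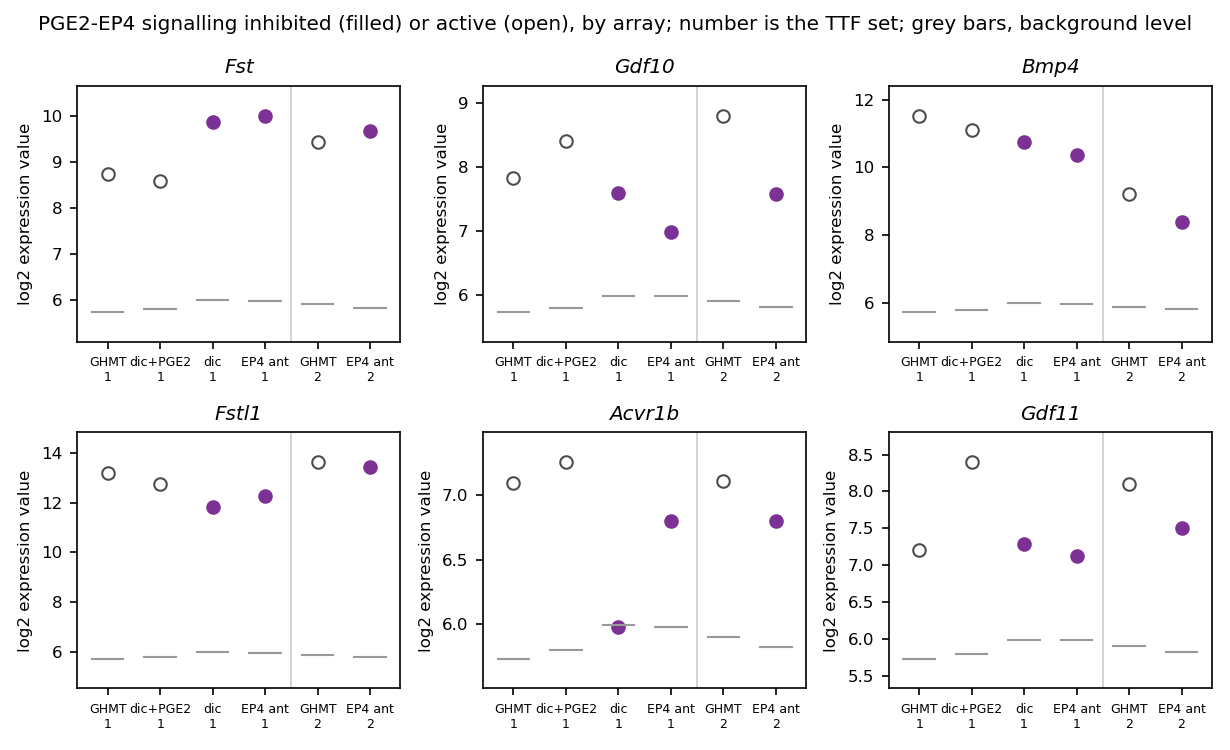
Log2 expression value (y axis) of 6 genes in the 6 arrays of the PGE2 and EP4 comparison (x axis, with the number of the TTF set), filled where signalling was inhibited and open where it was active; grey bars are each array's background level. For Gdf10 the filled points lie at 6.98 to 7.59 and the open ones at 7.82 to 8.80, while for Bmp4 the arms separate within a set and not across sets.

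Diclofenac and the return of PGE2 were compared in set 1 with 1 array each and no test. With diclofenac 4 of 44 genes (9.1%) were past 2-fold from GHMT, against 1.81% of all clusters (1.04% higher, 0.766% lower): Fst, Fstl1, Acvr1b and, at background in both arrays, Bmp5. With PGE2 added to diclofenac 5 (11.4%) were past 2-fold from diclofenac alone, against 2.16% (0.847% higher, 1.31% lower), of which Mstn and Bmpr1b lay at background. With the EP4 antagonist 3 of 44 (6.8%) were past 2-fold in set 1, against 1.6% (0.815% higher, 0.784% lower): Bmp4, Fst and Bmp5. In set 2 again 3 passed, all of them lower (Gdf10, Bmp6 and Smad6), against 2.74% (1.29% higher, 1.45% lower). Diclofenac plus PGE2 differed from GHMT by 2-fold in 3 genes (6.8%), all higher, against 1.81% (0.892% higher, 0.923% lower): Gdf11, Bmp5 and, at background, Bmpr1b.

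Acvr1b, a type I activin receptor, lay at background with diclofenac (5.98), and at 7.10 with GHMT, 6.80 with the EP4 antagonist and 7.26 with diclofenac plus PGE2. It was thus at least 2.15-fold lower with diclofenac than with GHMT and at least 2.40-fold higher after PGE2 was added. In set 2 it was at 7.11 with GHMT, 6.80 with the EP4 antagonist, 7.38 with the TGFb inhibitor and 6.91 with the Wnt inhibitor. Gdf11, a close relative of myostatin, was at 8.40 with diclofenac plus PGE2 and at 7.21, 7.29 and 7.12 with GHMT, diclofenac and the EP4 antagonist. The array with PGE2 stood apart from the other 3, 1.11 (2.16-fold) above diclofenac and 1.19 (2.28-fold) above GHMT. In set 2 Gdf11 was at 8.10 with GHMT, 7.51 with the EP4 antagonist, 8.18 with the TGFb inhibitor and 7.39 with the Wnt inhibitor, a range that reaches nearly as high.

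Bmp5, a BMP ligand, was above background in only 2 arrays, with the EP4 antagonist (6.25) and diclofenac plus PGE2 (6.10) of set 1. It was at background with GHMT (4.95) and diclofenac (5.96) there, and in all of set 2 (4.94 with GHMT, 4.59 with the EP4 antagonist, 4.15 with the TGFb inhibitor, 4.47 with the Wnt inhibitor). Against GHMT it was at least 1.43-fold higher with the EP4 antagonist and at least 1.29-fold higher with diclofenac plus PGE2. Smad6 was at 6.62 with GHMT of set 2 and at background (5.48) with the EP4 antagonist, at least 1.74-fold lower, while the TGFb and Wnt inhibitors gave 7.32 and 7.38. In set 1 Smad6 stood close to background throughout, at 5.81 with GHMT, 5.92 with diclofenac, 6.08 with the EP4 antagonist and 5.90 with diclofenac plus PGE2.

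The response lists were read in the PGE2 and EP4 arrays as well. Of the 20 TGFb response genes, 0 were higher and 4 lower by 2-fold with the EP4 antagonist in set 1, where 0.784% of all clusters were lower. In set 2, 1 was higher and 1 lower (1.29% and 1.45% of all clusters), and with diclofenac 0 were higher and 2 lower (0.766% of all clusters lower). Tgfbi was among them each time, at 12.14 with GHMT, 10.43 with diclofenac, 10.61 with the EP4 antagonist and 12.84 with diclofenac plus PGE2 in set 1. It was at 12.83 with GHMT and 10.67 with the EP4 antagonist in set 2. It was the 1 gene of this list called between the arms, in the fit with the block, where it fell by 2.03 ± 0.20 (n = 3 and 3; limma adjusted p = 0.00856). On the latency list Htra1, a secreted protease, rose by 1.12 ± 0.16 in the same fit (n = 3 and 3; limma adjusted p = 0.022), and neither passed without the block. Of the 16 BMP response genes, 0 passed 2-fold in the contrasts of set 1, and in set 2 1 was higher and 2 lower with the EP4 antagonist, Smad6 and Id4 (5.48, at background, against 6.65).

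The comparison of the TTF sets was the only tested one in which members passed with all arrays in the fit. The 4 arrays of GHMT and the EP4 antagonist, which both sets hold, were compared as 2 against 2. The 2 arrays of an arm come from the same TTF set and differ in treatment. SEs and p-values of this comparison therefore measure the spread between such arrays, not between TTF sets. Limma called 13 of 44 genes (29.5%), 10 higher and 3 lower in set 2, against 20.4% of all clusters (9.13% higher, 11.2% lower). With treatment as a block it called 12 (27.3%), 10 higher and 2 lower, against 15.3% (7.45% higher, 7.8% lower). Activin subunits, gremlin and an activin-binding follistatin were much higher in set 2, and Bmp4 was lower. Whatever else separates the sets, such as animals, culture or array processing, cannot be told apart from the set itself. The median difference was 0.12 over the 44 genes and -0.18 over all clusters, but 0.22 over the clusters above background in at least 2 of these arrays, so that the size and sign of the shift depend on which clusters are counted. After quantile normalization, where the median over all clusters was -0.01, limma called 9 of the 13 genes, without Tgfb1, Tgfb3, Smad3 and Chrd. That was 20.5% of the 44 genes, against 8.59% of all clusters. With only clusters above background in at least 2 of these arrays, limma called 10 of 32 members (31.2%), 8 higher and 2 lower. Of the 10152 clusters tested there 23.2% were called, and 74.7% of those were higher.

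Among the ligands Inhbb was higher in set 2 by 3.06 ± 0.20 (SE; 8.34-fold; limma adjusted p = 0.00157). Inhba, which encodes the subunit of activin A, was at 13.46 with GHMT, 13.22 with diclofenac, 12.93 with the EP4 antagonist and 13.60 with diclofenac plus PGE2 in set 1. Set 2 gave 15.20 with GHMT, 15.45 with the EP4 antagonist, 14.89 with the TGFb inhibitor and 14.75 with the Wnt inhibitor. The sets did not overlap, and the difference was 2.13 ± 0.24 (4.38-fold; limma adjusted p = 0.00478). Tgfb1 was higher by 0.88 ± 0.20 (1.84-fold; limma adjusted p = 0.0279; 0.54 and 0.15 after quantile normalization), although its array with the TGFb inhibitor lay below all of set 1. Tgfb3 was at 13.13, 13.26, 13.34 and 12.72 in set 1 (in the order GHMT, diclofenac, then EP4 antagonist, then diclofenac plus PGE2). Its values in set 2 were 14.00, 14.62, 14.16 and 14.92 (GHMT, EP4 antagonist, TGFb inhibitor, Wnt inhibitor), all of them higher (1.07 ± 0.25; limma adjusted p = 0.029; 0.68 and 0.123 after quantile normalization). Bmp4 was lower by 2.16 ± 0.41 (4.47-fold; limma adjusted p = 0.0168), and every array of set 2 lay below every array of set 1.

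Fstl3, an antagonist of activin and myostatin, was at 8.96, 9.07, 8.93 and 8.91 in set 1, in the same order of arrays, and at 10.99, 11.03, 10.21 and 11.37 in set 2. The sets did not overlap, and the difference was 2.06 ± 0.19 (4.18-fold; limma adjusted p = 0.00302). Grem1 was higher in set 2 by 3.07 ± 0.23 (8.43-fold; limma adjusted p = 0.00229). Within set 1 the Grem1 arrays lay within 0.26 of each other, whatever the treatment. Chrd, the gene of the BMP antagonist chordin, was called lower (-0.87 ± 0.22; limma adjusted p = 0.0362; 0.0528 with treatment as a block and 0.0741 after quantile normalization) on values around background: 5.87, 5.88, 5.96 and 6.14 in set 1 and 5.27, 4.83, 5.12 and 5.19 in set 2.

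Of the receptors Acvr1 was at 6.79, 6.85, 6.70 and 7.23 in set 1 and at 8.04, 7.57, 7.11 and 8.00 in set 2, in the order given. It was higher in set 2 (1.06 ± 0.23; 2.08-fold; limma adjusted p = 0.0226), and the array with the TGFb inhibitor overlapped set 1. Acvr2a, a type II activin receptor, was at 9.30, 8.84, 8.97 and 8.85 in set 1 and at 8.37, 8.07, 8.00 and 8.76 in set 2, lower by 0.92 ± 0.22 (1.89-fold; limma adjusted p = 0.0311). Smad3, the transducer of the TGFb branch, was at 10.06, 10.02, 9.87 and 10.27 in set 1 and at 11.05, 11.00, 11.53 and 10.35 in set 2. It was higher by 1.06 ± 0.20 (2.08-fold; limma adjusted p = 0.0163; 0.71 and 0.0672 after quantile normalization), with the Wnt inhibitor array only just above set 1. Bmp2 (5.83 and 5.76 in the compared arrays of set 2, 3.72 and 4.21 in set 1) and Bmpr1b were also called higher, but lay at background in all 4 arrays compared, so no fold is given. In the other arrays Bmp2 was at 4.07 with diclofenac, 3.96 with diclofenac plus PGE2 and 5.47 with the Wnt inhibitor.

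Over all 8 arrays the sets did not overlap for 16 of the 44 genes (36.4%), 9 higher and 7 lower in set 2, against 38.9% of all clusters. Of the further genes of the route, 3 of 17 latency genes were higher and 2 lower, led by Lrrc32, which tethers latent TGFb to the cell surface (3.42 ± 0.19; limma adjusted p = 0.00126). The TGFb response list had 5 of 20 higher and 1 lower, the BMP response list 2 of 16 higher and 1 lower. Smad partners had 3 of 19 higher and 0 lower, further antagonists 2 of 19 higher and 3 lower, and further ligands 0 of 16 higher and 1 lower. With treatment as a block, Smad partners had 1 higher, the latency list 2 higher and 3 lower, and the TGFb response list 4 higher and 1 lower. Over all clusters limma called 9.13% higher and 11.2% lower, and 7.45% and 7.8% with treatment as a block. Whether a list differed from these shares was not tested. Of 7 smooth muscle markers 4 were higher in set 2 and 0 lower (median 1.11), and of 10 fibroblast markers 3 were higher and 2 lower; of 10 cardiomyocyte markers 1 was higher and 2 lower (5 lower with treatment as a block). Their part in the set difference was not tested. With any 1 of the 4 arrays left out, limma called 0 members and 0 clusters, with 5351 to 6831 clusters at an unadjusted p under 0.05 and all 13 genes keeping their direction.

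**Figure D4:**
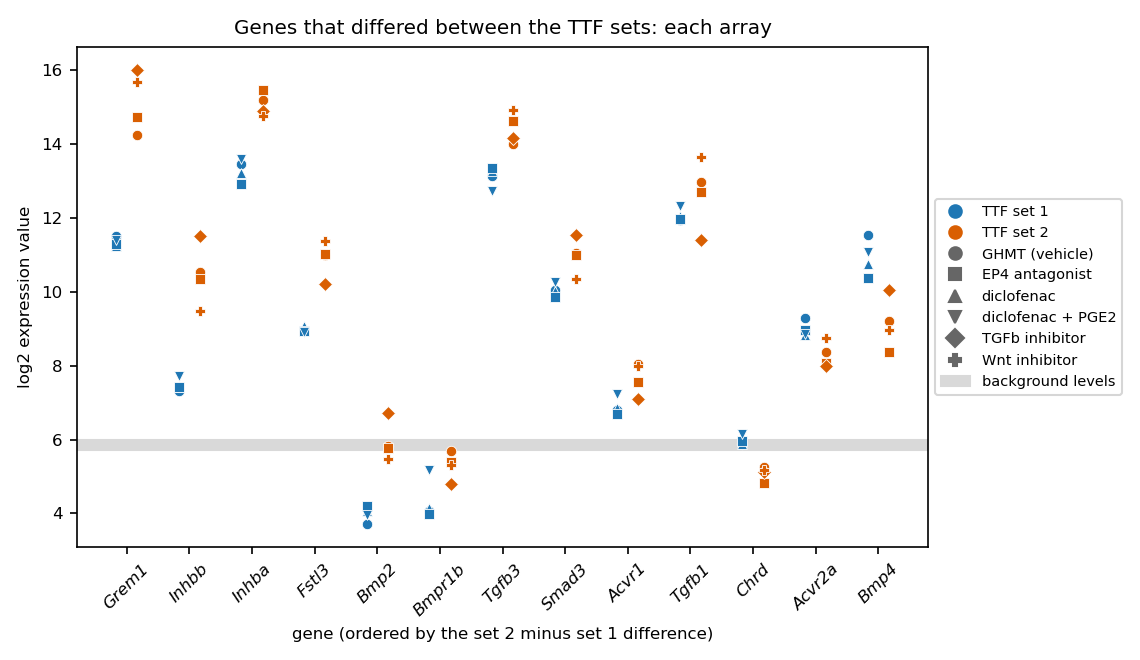
Log2 expression value (y axis) of the 13 genes called between the TTF sets, in each of the 8 arrays, with colour for the set and shape for the treatment; genes run from the highest to the lowest difference, and the grey band spans the background levels of 5.73 to 5.99. Grem1 and Inhbb, at the left, separate by 3.07 and 3.06, while all Bmpr1b points and 7 of 8 Bmp2 points lie in or below the band.

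The remaining genes differed by less than 2-fold with any treatment or lay at background in the arrays compared. Tgfb2 was at 12.23, 12.58, 12.72 and 12.72 in set 1 (in the order GHMT, diclofenac, then EP4 antagonist, then diclofenac plus PGE2). Set 2 gave 12.86, 12.69, 13.22 and 12.91 (GHMT, EP4 antagonist, TGFb inhibitor, Wnt inhibitor), so that the sets overlap. The type I TGFb receptor Tgfbr1 was at 10.79, 10.62, 10.93 and 10.98 in set 1 and at 11.35, 10.80, 11.12 and 10.89 in set 2. The type II receptor Tgfbr2, at 12.60, 12.45, 12.24 and 12.54 in set 1 and 13.34, 12.87, 13.55 and 12.86 in set 2, did not overlap between the sets, though limma did not call it. Smad7 stayed near background, at 6.13, 5.98, 6.14 and 6.68 in set 1 and 6.02, 6.01, 6.13 and 6.45 in set 2, highest with PGE2 and with the Wnt inhibitor. Chrdl1, a chordin-like antagonist, was at 5.99, 6.34, 6.46 and 5.98 in set 1 and at 5.59, 5.83, 4.03 and 4.31 in set 2, where 3 of 4 values lay at background.

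The narrowest ranges over the 8 arrays belonged to Smad4, shared by both branches (12.09 to 12.53), and Bmpr1a, a BMP type I receptor (10.91 to 11.39). Narrow ranges were also seen for Bmpr2, the BMP type II receptor (14.17 to 14.84), Smad1 (12.06 to 12.73) and Bambi, a pseudoreceptor without a kinase (9.58 to 10.29). Smad2 lay between 7.94 and 8.83, Bmp3 between 8.73 and 9.82, Eng between 10.44 and 11.60, and Smad5 between 11.07 and 12.29. The median range of the 28 members above background in every array was 1.33, against 0.97 over 8813 such clusters. Over all 44 genes, those at background included, the median range was 0.48 within set 1. Within set 2, which holds the TGFb and Wnt inhibitors, it was 0.79. The range within a set was not computed over all clusters, so a wider range in set 2 may not be particular to these genes.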

How the data were processed

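Labelled total RNA of 8 cultures was hybridised to Clariom S Mouse arrays. The authors deposited log2 expression values, normalized with SST-RMA in Affymetrix Expression Console 1.4, per the submitters' processing notes. The labels do not state a genome build, a filter, or whether the sets were normalized together. Each array had 28846 deposited values, 22206 for transcript clusters and 6640 for control probe sets. A symbol came with 19572 clusters; 2634 are unnamed here. The number of arrays limits the precision.

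The 44 genes, the gene lists and the background rule were chosen with earlier results of these data known. The rule for giving all 8 values of a gene was: above background in at least 1 array and 2-fold apart within or between sets, called, or at the core of the route. Up to 4 genes a list are named by size; Id3, Grem1, Smad9, Htra1 and Tgfbi were named outside it.

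Replicate numbers are the TTF set numbers in the titles. They pair the samples: arrays correlated at 0.986 to 0.995 within a set and at 0.974 to 0.984 across sets, which also separated along principal component 1 (56.6% of variance). Tests used limma 3.58.1 in R 4.3.3 (lmFit and eBayes, adjusted p under 0.05), without the set as a block, and with it as an alternative; the fits were tested on simulated data. Other contrasts are 1 array minus 1. Alternatives were quantile normalization, a filter on background, a trend and robust prior, 1.5-fold, the highest background probe set, and leaving out each array.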

Additional observations from a re-analysis of the deposited data

Results flagged for a closer look

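For 10 genes above background in all 4 arrays, the EP4 antagonist array lay on opposite sides of GHMT in the sets. With 1 pair of arrays per set the difference between the sets was not tested, and some of these values are close to 0. Set 2 minus set 1, the difference was -0.32 for Tgfb1 (0.04 in set 1, -0.28 in set 2), -0.66 for Tgfb2 (0.49, -0.17), 0.78 for Inhba (-0.53, 0.25) and -0.30 for Inhbb (0.11, -0.19). It was -0.69 for the receptor Tgfbr1 (0.14, -0.55) and -0.41 for Bmpr1a (0.09, -0.32). It was -0.02 for Smad7 (0.01, -0.01), 0.07 for Fstl3 (-0.03, 0.04), 0.69 for Grem1 (-0.21, 0.48) and -0.45 for Bambi (0.17, -0.28). Inhba, Grem1, Tgfbr1 and Tgfb2 had the widest gaps of the 10, while Bmp6 (-0.05, -1.16) and Fst (1.26, 0.24) differed by -1.11 and -1.02 without a change of sign.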

How the results depend on the processing

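The direction of every gene called between the sets was kept under every alternative that tested it. With treatment as a block 12 of the 13 genes remained (Chrd lost, adjusted p = 0.0528) and 3387 clusters passed. Quantile normalization gave 9 of the 13, or 20.5% of the 44 genes. Lost were Tgfb1 (limma adjusted p = 0.15), Smad3 (0.0672), Tgfb3 (0.123) and Chrd (0.0741). This fit called 1907 clusters (8.59%) against 4523 (20.4%). With clusters above background in at least 2 arrays it was 10 of 32 members (31.2%) and 2359 of 10152 clusters (23.2%). The other 3 of the 13 genes were not tested there. The share of called clusters that were higher was 44.8%, 51.4% after quantile normalization and 74.7% with the filter. Leaving out 1 array gave 0 members and 0 clusters.

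For the EP4 antagonist 8 clusters passed with a trend and robust prior and the replicate block, and 1 to 25 when 1 array was left out, with 0 members in each. Without 1 array Bmp4 ranged from -2.15 to 0.17 (GHMT replicate 1 left out; 0.01 without EP4 antagonist replicate 2) and Fstl1 from -1.15 to 0.04 (EP4 antagonist replicate 1 left out), which are fits that set arrays of different sets against each other. For inhibited against active arrays 84 clusters passed with the replicate block and 143 with the prior as well. Leaving out 1 array gave 0 to 3 without the block. With it, an alternative added after seeing the data, 192 passed without GHMT replicate 1 (with 1 member, Gdf10), 17 without diclofenac plus PGE2, 4 without EP4 antagonist replicate 1, 2 without diclofenac and 0 without an array of set 2, and 0 members in these. Fits with the block that leave out an array of the EP4 antagonist comparison were not run, as 1 pair remains.

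At 1.5-fold, members past the threshold were 7 with diclofenac, 11 for PGE2 added to diclofenac, 5 for diclofenac plus PGE2 against GHMT, 19 with the TGFb inhibitor and 13 with the Wnt inhibitor. With members above background in at least 1 of the arrays compared, the counts at 2-fold were 3 for PGE2 added to diclofenac, 3 with the TGFb inhibitor and 3 with the Wnt inhibitor. Neither kind of count was made over all clusters, so these numbers have no share to be read against. The replicate block changed no other call. Against the highest background probe set 34 members, not 35, lay above background, the one lost being Bmp2. Single-array contrasts have no replicate, and values near background have no order.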
